A study of Canis lupus familiaris with 8 samples.

Results

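A set of 10 transcription factors that set or keep rod and cone identity was followed in dog retina prepared by freezing alone or after fixation. They were chosen by name, as CRX, OTX2, NRL, NR2E3, RORB, THRB, RXRG, NEUROD1, MEF2D and PRDM1, and 9 of the 10 were among the 12824 genes of the deposited table. NEUROD1 was not analysed here. Both groups were retina of male wild-type Beagle dogs aged 31 weeks, 4 libraries each, and no animal was described as treated. In the fresh-frozen group, right eyecups were cut into quadrants and embedded unfixed. In the PFA-fixed group, left eyecups spent 3 h in 4% paraformaldehyde (PFA, a crosslinking fixative) and 24 h in 2% PFA at 4 °C, then 24 h each in 15% and 30% sucrose, before embedding. RNA of fixed tissue was taken up with a kit for paraffin blocks after 18 h of proteinase K at 56 °C, and RNA of unfixed tissue with a kit for small samples, so that fixation, side of the eye and extraction kit cannot be told apart. The study asked how far a retinal transcriptome from fixed tissue resembles one from frozen tissue.

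Photoreceptors arise from progenitors in which OTX2, a homeobox factor, commits cells to the photoreceptor lineage and turns on its close relative CRX, which then drives most photoreceptor genes. RORB acts upstream of NRL, the leucine zipper factor that directs precursors to the rod fate, and NRL in turn acts with the nuclear receptor NR2E3, which represses cone genes in rods. In cones, the thyroid hormone receptor THRB and the retinoid X receptor RXRG pattern opsin expression. MEF2D works with CRX at photoreceptor enhancers, and PRDM1 keeps early precursors from the bipolar fate. OTX2 is also expressed by bipolar cells and the retinal pigment epithelium, and RORB, THRB and MEF2D are found in further cell types.

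The effective depth, estimated from the spacing of low values, ran from 21670000 to 22760000 reads in fresh-frozen and from 11040000 to 15410000 reads in PFA-fixed libraries. Libraries of one group correlated across genes at r = 0.977 to 0.990, and libraries of different groups at r = 0.832 to 0.862 (Pearson, on the log2 values). With limma, a linear model fitted over all genes, 68.7% of genes differed between the groups at an adjusted p under 0.05 (33.9% higher and 34.7% lower in PFA-fixed), and the groups did not overlap in 62.9% of genes. All values below are the authors' log2 CPM (the log2 of a gene's reads after scaling by library), and all changes are PFA-fixed minus fresh-frozen on that scale. Summed over all genes, the CPM came to 947376 to 975641 in fresh-frozen and 1021460 to 1058310 in PFA-fixed libraries. The fixed sums exceed what reads divided by the library total can reach, so the scaling was not plain CPM. Its details were not given in the sources used here, and its part in small changes was not separated. Levels are not corrected for transcript length, so one factor's level was not ranked against another's.

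Of the 9 factors, 3 rose (CRX, NR2E3 and OTX2), 3 fell (RXRG, RORB and NRL) and 3 did not pass the test (THRB, MEF2D and PRDM1). The share of 6 in 9 is near the 68.7% of all genes and is not a result about these factors. Changes were small for 8 of the 9, which lay within 2-fold, as 75.6% of all genes did, and the largest was the 2.37-fold fall of RXRG. The median change of the 9 was 0.17, against -0.02 over all genes. The groups did not overlap in 3 of the factors, CRX and NR2E3 upward (31.3% of all genes) and RXRG downward (31.6%). The labels do not say which libraries came from one dog, and each p-value here reflects only the variation among these 8 libraries, which may be technical.

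**Figure D1:**
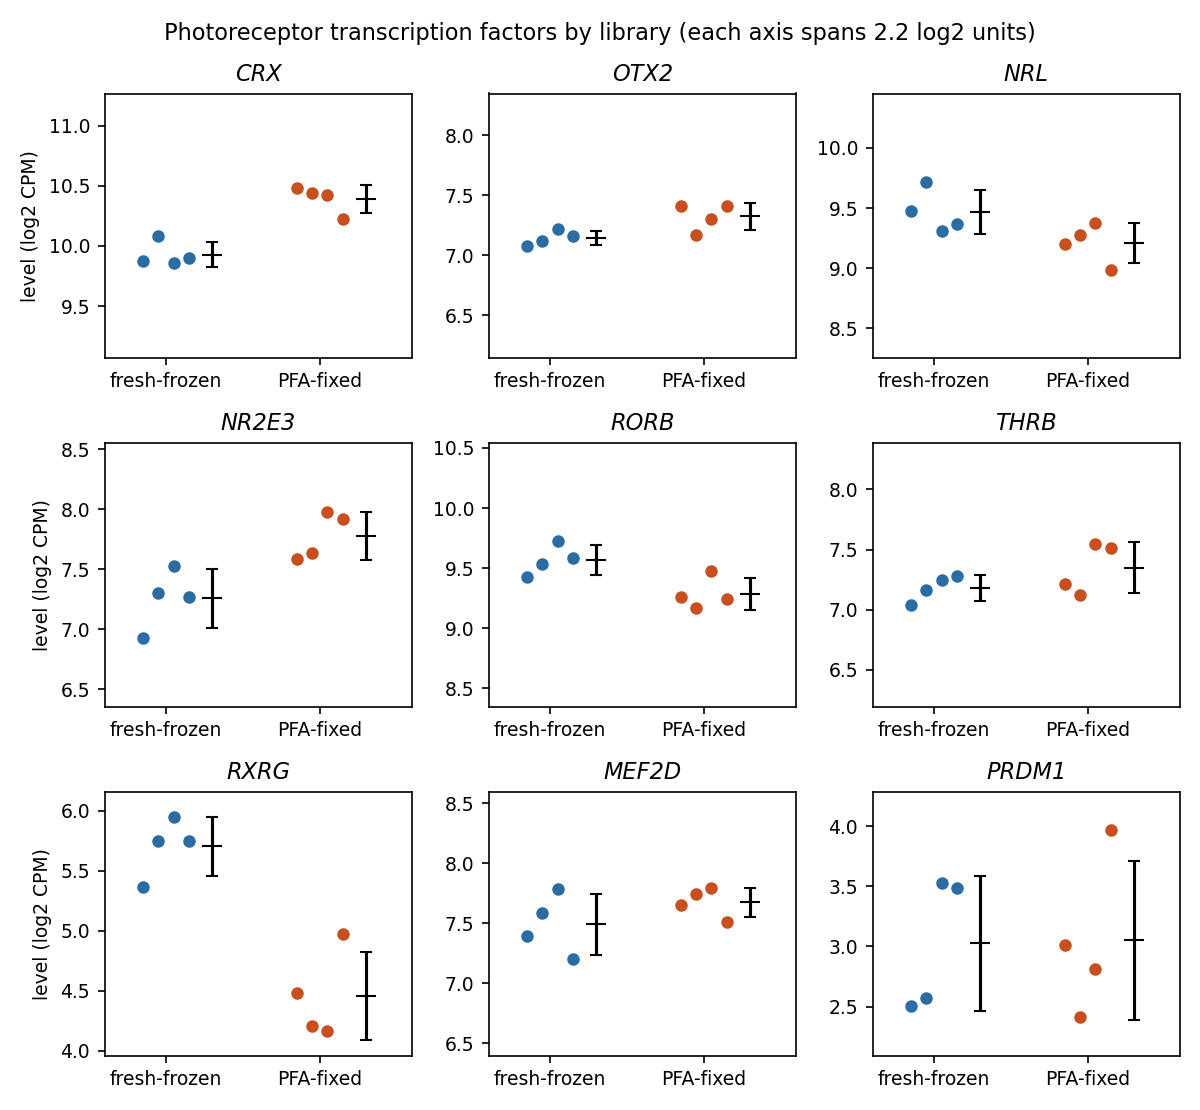
Level of each measured factor in log2 CPM (vertical axis, spanning 2.2 log2 units in every panel) in the 4 fresh-frozen (blue) and 4 PFA-fixed (orange) libraries, replicates 1 to 4 from left to right in each group. Bars beside the points are mean ± SD (n = 4). RXRG shows the widest gap between the groups and PRDM1 the widest spread within them.

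CRX rose in fixed retina. Its level was 9.87, 10.08, 9.86 and 9.90 log2 CPM in fresh-frozen replicates 1 to 4, and 10.48, 10.44, 10.43 and 10.22 in PFA-fixed replicates 1 to 4. Every fixed library exceeded every fresh-frozen one, by at least 0.14, and PFA-fixed replicate 4 was the lowest of its group. The means were 9.93 ± 0.10 and 10.39 ± 0.12 (SD, n = 4 each), a change of 0.47 ± 0.08 (SE) or 1.38-fold (limma adjusted p = 0.000256). In linear units this was 975 ± 72.4 against 1348 ± 105 CPM. Over all genes, 25.6% rose more.

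OTX2, the factor that switches CRX on, stood at 7.08, 7.12, 7.21 and 7.16 log2 CPM in fresh-frozen and at 7.41, 7.17, 7.30 and 7.41 in PFA-fixed replicates 1 to 4. PFA-fixed replicate 2 lay inside the fresh-frozen range and the other 3 fixed libraries above it. The means were 7.14 ± 0.06 and 7.32 ± 0.11 (SD, n = 4 each), a rise of 0.18 ± 0.07 (SE; limma adjusted p = 0.0366). Leaving out one library at a time, the call held only for fresh-frozen replicate 3 (0.20) and PFA-fixed replicate 2 (0.23) and ended for each of the other 6 (0.15 to 0.19). OTX2 had one of the smallest spreads in fresh-frozen retina, where only 7.21% of genes had a lower SD.

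Markers of the other cell types that carry OTX2 moved in both directions beside it. All 12 markers of the retinal pigment epithelium fell, with a median of -4.87, and their summed level was 3276 to 4738 CPM in fresh-frozen and 160 to 237 CPM in fixed libraries. The visual cycle gene RPE65 went from 9.58 ± 0.24 to 4.68 ± 0.66 log2 CPM, and the melanin enzyme gene DCT from 9.21 ± 0.37 to 1.44 ± 0.56 (SD, n = 4 each). None of the 12 stood at the table's lowest value in any library. Of 13 bipolar cell markers, 7 rose and 1 fell (33.9% and 34.7% among all genes), with a median of 0.40. Their summed level was 1524 to 1920 CPM in fresh-frozen and 2566 to 3308 CPM in fixed libraries. The ON bipolar genes GRM6 and TRPM1 rose by 1.11 and 0.93. The called fall was of PCP2 (-0.74), and NYX, not called as deposited, differed by -0.76. The part of either cell type in the level of OTX2 was not tested. In bulk tissue, fewer cells of a type and less RNA per cell cannot be told apart.

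The rod factors NRL and NR2E3 went opposite ways. NRL was at 9.47, 9.72, 9.31 and 9.36 log2 CPM in fresh-frozen and at 9.20, 9.27, 9.37 and 8.99 in PFA-fixed replicates 1 to 4. PFA-fixed replicate 3 overlapped the fresh-frozen range, and the highest value of all was fresh-frozen replicate 2. The means were 9.47 ± 0.18 and 9.21 ± 0.16 (SD, n = 4 each), a fall of 0.26 on the log2 scale (SE 0.10; limma adjusted p = 0.0432). Omitting fresh-frozen replicate 1 (-0.25) or replicate 2 (-0.17) ended the call, as did omitting PFA-fixed replicate 1 (-0.25), replicate 2 (-0.28) or replicate 4 (-0.18).

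NR2E3 was at 6.93, 7.30, 7.53 and 7.27 log2 CPM in fresh-frozen and at 7.59, 7.63, 7.98 and 7.92 in PFA-fixed replicates 1 to 4. The groups did not overlap, although only 0.06 separated the highest fresh-frozen from the lowest fixed library. The means were 7.26 ± 0.25 and 7.78 ± 0.20 (SD, n = 4 each), a rise of 0.52 ± 0.13 (SE) or 1.44-fold (limma adjusted p = 0.00292). Without single libraries the rise was 0.41 to 0.61, and it passed the test each time.

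RORB, which acts above NRL, was at 9.43, 9.54, 9.72 and 9.58 log2 CPM in fresh-frozen and at 9.26, 9.17, 9.47 and 9.24 in PFA-fixed replicates 1 to 4. The groups overlapped by 0.04, between PFA-fixed replicate 3 and fresh-frozen replicate 1. The means were 9.57 ± 0.12 and 9.28 ± 0.13 (SD, n = 4 each), a fall of 0.28 on the log2 scale (SE 0.08; limma adjusted p = 0.00997). It fell by 0.23 to 0.35 without single libraries, and its call held in each case.

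RXRG, the cone-enriched retinoid X receptor, had the largest change of the 9 factors. Its level was 5.37, 5.74, 5.95 and 5.75 log2 CPM in fresh-frozen and 4.48, 4.21, 4.17 and 4.97 in PFA-fixed replicates 1 to 4. All fixed libraries were below all fresh-frozen ones, by at least 0.40, and PFA-fixed replicate 4 stood highest in its group. The means were 5.70 ± 0.24 and 4.46 ± 0.37 (SD, n = 4 each), and the fall was 1.25 on the log2 scale (SE 0.17; limma adjusted p = 5.53e-05), with a 95% interval from -1.63 to -0.86. In linear units this was 52.6 ± 8.48 against 22.5 ± 6.18 CPM. Over all genes, 10.6% fell more. The fewest reads behind any of its values were an estimated 203, whose counting error alone is 0.10 log2.

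THRB, its partner receptor in cones, did not pass the test. It was at 7.03, 7.17, 7.25 and 7.28 log2 CPM in fresh-frozen and at 7.21, 7.12, 7.55 and 7.51 in PFA-fixed replicates 1 to 4. PFA-fixed replicates 3 and 4 were above all fresh-frozen libraries, and replicates 1 and 2 were within their range. The difference was 0.17 ± 0.10 (SE; limma adjusted p = 0.161), with a 95% interval from -0.05 to 0.39, and omitting PFA-fixed replicate 2 brought it past the threshold (0.24, limma adjusted p = 0.0473).

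MEF2D was at 7.39, 7.58, 7.79 and 7.20 log2 CPM in fresh-frozen and at 7.65, 7.74, 7.79 and 7.51 in PFA-fixed replicates 1 to 4. The fresh-frozen range held 3 of the fixed libraries, and replicate 3 of both groups had nearly the same value. The difference was 0.18 ± 0.11 (SE; limma adjusted p = 0.170), with a 95% interval from -0.07 to 0.43, and it was called without fresh-frozen replicate 3 (0.28, limma adjusted p = 0.0245).

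PRDM1 was the least reproducible factor. It was at 2.51, 2.57, 3.53 and 3.49 log2 CPM in fresh-frozen and at 3.01, 2.41, 2.82 and 3.97 in PFA-fixed replicates 1 to 4. The groups overlapped throughout, with means of 3.03 ± 0.56 and 3.05 ± 0.66 (SD, n = 4 each). The difference was 0.03 ± 0.34 (SE; limma adjusted p = 0.951), with a 95% interval from -0.71 to 0.76, and it turned to -0.15 and -0.13 when fresh-frozen replicate 1 or 2 was omitted and to -0.28 when PFA-fixed replicate 4 was. Its SD exceeded that of 95.6% of genes in fresh-frozen and 97.5% in fixed retina. Between 57 and 253 estimated reads lay behind each value, and counting error at 57 reads, which covers the sampling of reads only, is 0.19 log2.

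Within the groups the factors did not all deviate in the same libraries. Fresh-frozen replicate 3 held the highest value of its group for 6 of the 9 factors (OTX2, NR2E3, RORB, RXRG, MEF2D and PRDM1) and the lowest for CRX and NRL. Fresh-frozen replicate 1 held the lowest value for 6 (OTX2, NR2E3, RORB, THRB, RXRG and PRDM1). PFA-fixed replicate 4 was lowest for CRX, NRL and MEF2D and highest for OTX2, RXRG and PRDM1. The mean of 14 cone genes was also lowest in fresh-frozen replicate 1 (5.86 log2 CPM) and highest in fresh-frozen replicate 3 (6.37), and among fixed libraries highest in PFA-fixed replicate 4 (6.91), the same extremes as for RXRG apart from the lowest fixed library, which was replicate 2 for the cone mean (6.43) and replicate 3 for RXRG. This comparison with cone genes was chosen after the values were seen.

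Centring the libraries on another reference shifts every change by one amount, and under the 4 scalings tried 7 of the 9 factors changed call or direction. With the libraries centred on 28 rod genes (their mean level, none of them one of the factors), the median change of all genes became -0.36 (a shift of -0.34) and 26.2% of the calls were rises, against 49.4% as deposited. With this scaling CRX and NR2E3 differed by 0.13 and 0.18 and were no longer called (limma adjusted p = 0.104 and 0.275). OTX2, THRB, MEF2D and PRDM1 turned to -0.16, -0.18, -0.16 and -0.32, none of them called. NRL, RORB and RXRG fell, with changes of -0.60, -0.62 and -1.59. Quantile normalization left OTX2 uncalled (0.12), and centring on the median of all genes left NRL uncalled (-0.18) and called THRB (0.25). RORB and RXRG fell and were called with each of the 16 alternatives tried, at -0.64 to -0.20 and -1.60 to -1.15.

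**Figure D2:**
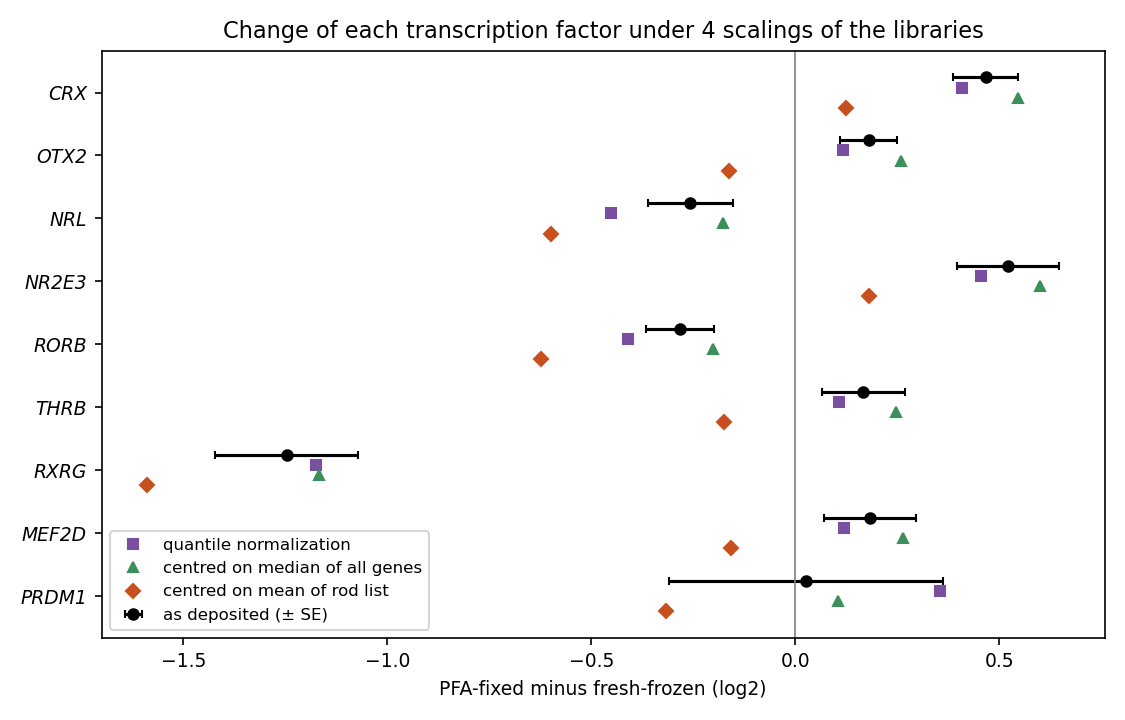
Change of each factor, PFA-fixed minus fresh-frozen in log2 units (horizontal axis), as deposited with its SE (black) and after 3 other scalings of the libraries (coloured). The 4 markers of RXRG lie between -1.59 and -1.17, and those of OTX2, THRB, MEF2D and PRDM1 lie on both sides of 0.

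A difference between 2 factors within one library does not depend on how libraries are centred, and 10 such differences were compared. NRL was below CRX by 0.40, 0.36, 0.55 and 0.53 in fresh-frozen replicates 1 to 4, and by more than 1 in each fixed library. The within-library value of NRL minus CRX went from -0.46 ± 0.10 to -1.18 ± 0.10 (SD, n = 4 each), a change of -0.72 (exact permutation p = 0.0286, two-sided; adjusted p = 0.0571 over 10 pairs). RORB minus CRX went from -0.36 ± 0.18 to -1.11 ± 0.16, and RXRG minus CRX from -4.22 ± 0.26 to -5.94 ± 0.47, with the same exact p and adjusted p. NR2E3 minus NRL went from -2.21 ± 0.34 to -1.43 ± 0.26, and RXRG minus THRB from -1.48 ± 0.16 to -2.89 ± 0.36, again with the same exact p and adjusted p.

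In these 5 pairs no fixed library overlapped a fresh-frozen one. Among single genes the groups did not overlap in 62.9%, and the share among gene pairs at large was not computed. The count of pairs without overlap is therefore not a result about these factors. The exact p of 0.0286 is the smallest that 4 libraries against 4 allow, and no pair passed 0.05 after adjustment. When fresh-frozen replicate 4 was omitted, these 5 pairs and MEF2D against CRX did (exact permutation, adjusted p = 0.0476 each). The smallest exact p is also 0.0286 with 4 libraries against 3, so the exact p of the 5 pairs did not fall. Their adjusted p moved only because MEF2D against CRX tied with them, and this pass is not stronger evidence for them. NR2E3 and CRX kept nearly the same distance, with NR2E3 minus CRX at -2.67 ± 0.26 and -2.62 ± 0.28 (SD, n = 4 each), a change of 0.05 (exact permutation p = 0.771, adjusted p = 0.771). This change turned to -0.04 when fresh-frozen replicate 1 was omitted, and to -0.0010 and -0.05 when PFA-fixed replicate 3 or 4 was. OTX2 and MEF2D each moved by -0.29 and -0.28 relative to CRX, THRB by -0.30 and PRDM1 by -0.44, with overlapping groups (exact permutation p from 0.0571 to 0.371).

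**Figure D3:**
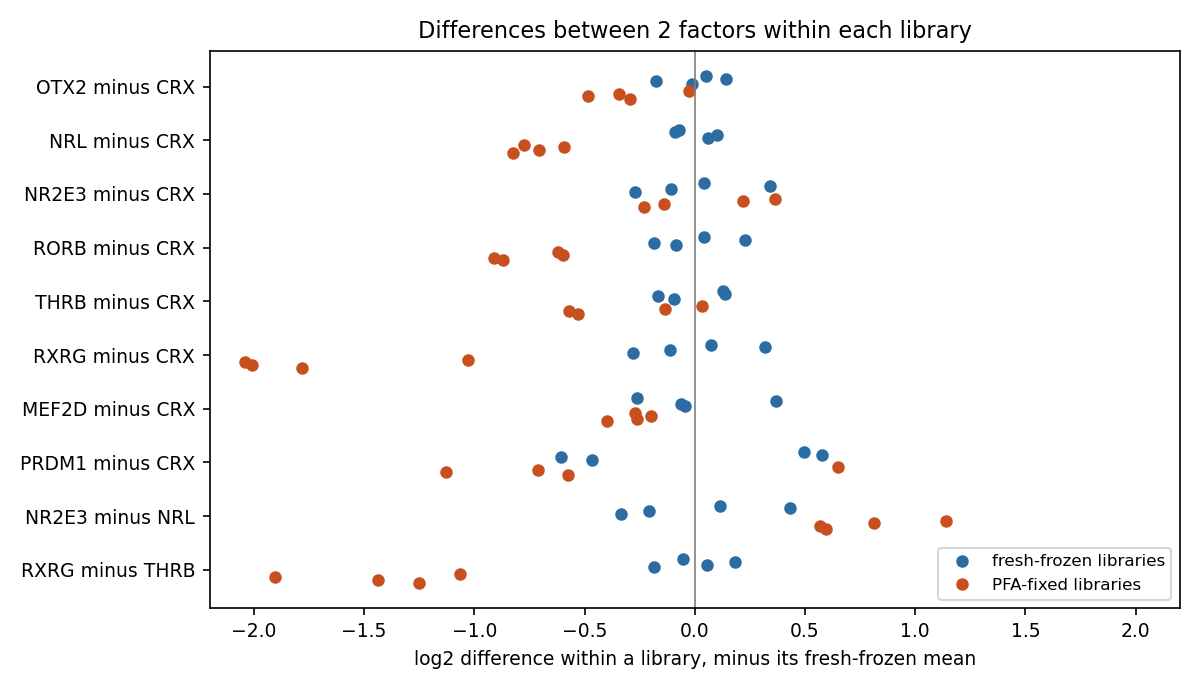
Difference between 2 factors within each library in log2 units, minus the fresh-frozen mean of that pair (horizontal axis), for 10 pairs. Fixed libraries (orange) lie apart from fresh-frozen ones (blue) for NRL, RORB and RXRG against CRX, for NR2E3 against NRL and for RXRG against THRB.

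Among effector genes that these factors control in rods, all 28 listed were measured. Of these, 14 rose and 5 fell (33.9% and 34.7% among all genes), and the median change was 0.28. Their called share in both directions together is close to the 68.7% of all genes and is not a result about rod genes. Split by direction, rises were more frequent and falls less frequent than among all genes. These counts moved with the scaling and with the libraries kept. The disc protein gene PRCD rose by 1.65 and the retinol dehydrogenase gene RDH8 by 1.39, while GNB1, the transducin beta subunit gene, differed by 0.12 (limma adjusted p = 0.292) and turned to -0.21 with quantile normalization and -0.22 with rod-mean centring. Of the 5 falls, AIPL1, a chaperone gene for the rod phosphodiesterase, fell by 0.50 and SAG, the rod arrestin gene, by 0.23, the latter uncalled with median centring (-0.15) or when PFA-fixed replicate 1 was omitted. Falls numbered 1 when PFA-fixed replicate 1 was omitted, 2 when PFA-fixed replicate 2 or 4 or fresh-frozen replicate 2 was, and 3 when fresh-frozen replicate 3 or 4 was. With quantile normalization, 10 were higher and 9 lower. Centring on these same genes fixes their mean change at 0. Neither a count nor the turn of a single rod gene such as GNB1 is read from it.

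Among 14 measured cone genes there were 5 rises and 3 falls (33.9% and 34.7% among all genes), and the median change was 0.15, beside the fall of RXRG. The cone channel subunit gene CNGA3 rose by 4.52, and CCDC136, a gene placed in the cone list, by 2.61. CCDC136 was lowest in fresh-frozen replicate 3 (6.53 log2 CPM) and PFA-fixed replicate 4 (9.13), the libraries of each group where the cone mean was highest. PDE6H, the inhibitory subunit of the cone phosphodiesterase, differed by -0.05 (limma adjusted p = 0.828), with both signs among single omissions (-0.20 to 0.11) and 0.03 with median centring. The long-wavelength opsin gene OPN1LW, a target of THRB, was at 6.88 to 7.91 log2 CPM in fresh-frozen and 6.40 to 7.39 in fixed libraries, a difference of -0.60 (limma adjusted p = 0.0491) whose call ended in 5 of 8 single omissions (fresh-frozen replicates 3 and 4, PFA-fixed replicates 1, 2 and 3; -0.81 to -0.42 over all 8) and with median centring (-0.52). OPN1SW, the short-wavelength opsin gene that RXRG helps to restrain in cones, differed by 0.17 (limma adjusted p = 0.388) and turned to -0.17 with rod-mean centring and to -0.0040 when fresh-frozen replicate 4 was omitted. Falls among cone genes numbered 1 when fresh-frozen replicate 4 was omitted, and also 1 when PFA-fixed replicate 2 was.

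Of 26 measured partners and modifiers of the factors, 12 rose and 7 fell (33.9% and 34.7% among all genes), with a median of 0.13. Their called share in both directions together is again near the 68.7% of all genes. The coactivator genes EP300, ATXN7 and KAT2A, whose products work with CRX on chromatin, rose by 0.45, 0.60 and 0.83, while CREBBP fell by 0.18. PIAS3, the gene of a SUMO ligase that modifies photoreceptor factors, rose by 0.43, and the rod silencing gene SAMD7 by 0.37. The nuclear corepressor gene NCOR1 rose by 0.44. EP300, NCOR1, PIAS3 and SAMD7 kept their direction but not their call with rod-mean centring (0.11, 0.10, 0.09 and 0.03), ATXN7 lost its call with rod-median centring (0.25), and CREBBP with median centring (-0.10).

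The largest falls among partners were of the COUP-TF genes NR2F1 and NR2F2, orphan receptors that pattern cone opsins, with changes of -1.42 and -1.56. NR2F2 varied among fixed libraries, with 5.07, 5.26, 5.42 and 3.56 log2 CPM in PFA-fixed replicates 1 to 4, against 6.10 to 6.64 in fresh-frozen ones. The eye field gene RAX fell by 1.12 and TBX2, which acts in short-wavelength cone fate, by 0.67. NR2F2 is also expressed in vessels, whose 10 markers fell in 9 cases, against 34.7% of all genes (median -2.65, summed level 2274 to 3107 CPM against 694 to 757 CPM). The share of vessels in the fall of NR2F2 was not tested.

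Of 20 measured paralogs of the factors, 8 rose and 9 fell (33.9% and 34.7% among all genes), with a median of -0.19. In the MAF family, to which NRL belongs, relatives fell, with changes of -2.18 for MAF, -3.23 for MAFF, -1.75 for MAFG and -1.02 for MAFK, against -0.26 for NRL. MAF is also expressed by macrophages, and 8 of 10 microglia and macrophage markers fell beside it (median -2.75, summed level 237 to 381 CPM against 36.9 to 53.6 CPM). MAFF stood at the table's lowest value in 1 fixed library, so its change is not exact. The part of other cell types in these falls was not tested.

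Among nuclear receptors, the retinoid X receptor genes split. RXRA fell by 0.37 (SE 0.07; limma adjusted p = 0.000388) and RXRB rose by 0.74 ± 0.09 (SE; limma adjusted p = 2.47e-05), beside the fall of RXRG by 1.25, and all 3 kept direction and call under the 4 other scalings. THRA differed by -0.09 and RORA by 0.09 as deposited (limma adjusted p = 0.439 and 0.291), and with rod-mean centring both were called lower, at -0.43 and -0.26, whereas median centring called RORA higher (0.16). NR2E1, the relative of NR2E3 that acts in progenitors and glia, fell by 0.70.

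Of the MEF2 genes, MEF2C rose by 0.86 and MEF2B by 2.02, and MEF2A fell by 0.29, while MEF2D did not pass. MEF2B was at 1.15 to 1.74 log2 CPM in fresh-frozen and 3.35 to 3.56 in fixed libraries. OTX1 rose by 0.86 (limma adjusted p = 0.0397) from low levels, a call that ended in 5 of 8 single omissions (fresh-frozen replicates 3 and 4, PFA-fixed replicates 1, 2 and 3; 0.52 to 1.05 over all 8) and with rod-mean centring (0.52). PRDM2, PRDM4 and PRDM10 rose by 0.93, 0.29 and 0.43, of which PRDM4 turned to -0.05 and PRDM10 lost its call (0.09) with rod-mean centring. Of the proneural relatives of NEUROD1, NEUROD4 fell by 0.44 (uncalled with quantile normalization at -0.26), NEUROG2 rose by 0.91 and NEUROD2 differed by -0.42 (limma adjusted p = 0.223), called lower with rod-mean centring (-0.76).

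Among regulators of other retinal fates, 5 of 21 measured genes rose and 7 fell (33.9% and 34.7% among all genes), and the median was -0.22. PROX1, a homeobox gene of horizontal cells, rose by 0.47 and was uncalled with rod-mean centring (0.13). TFAP2A, an amacrine cell factor, and the ganglion cell factor gene POU4F1 fell, with changes of -1.59 and -1.34. TFAP2B, in the same lists as TFAP2A, rose by 0.32 and turned to -0.02, uncalled, with rod-mean centring. Amacrine and horizontal cell markers, which share cells with RORB, had 4 of 12 up, 5 down and a median of 0.01. Müller glia markers had 6 of 10 down and none up, with a median of -0.75. The largest of these falls were of APOE (-4.77) and RLBP1 (-3.17), the latter also counted among the pigment epithelium markers. SLC1A3, KCNJ10, AQP4 and DKK3 did not pass the test (-0.02, 0.0015, -0.20 and -0.21). All 11 markers of sclera and fibroblasts fell, with a median of -7.40 and a summed level of 8300 to 11419 CPM in fresh-frozen and 221 to 272 CPM in fixed libraries. How much each of these cell types contributed to the values of the factors was not tested.

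**Figure D4:**
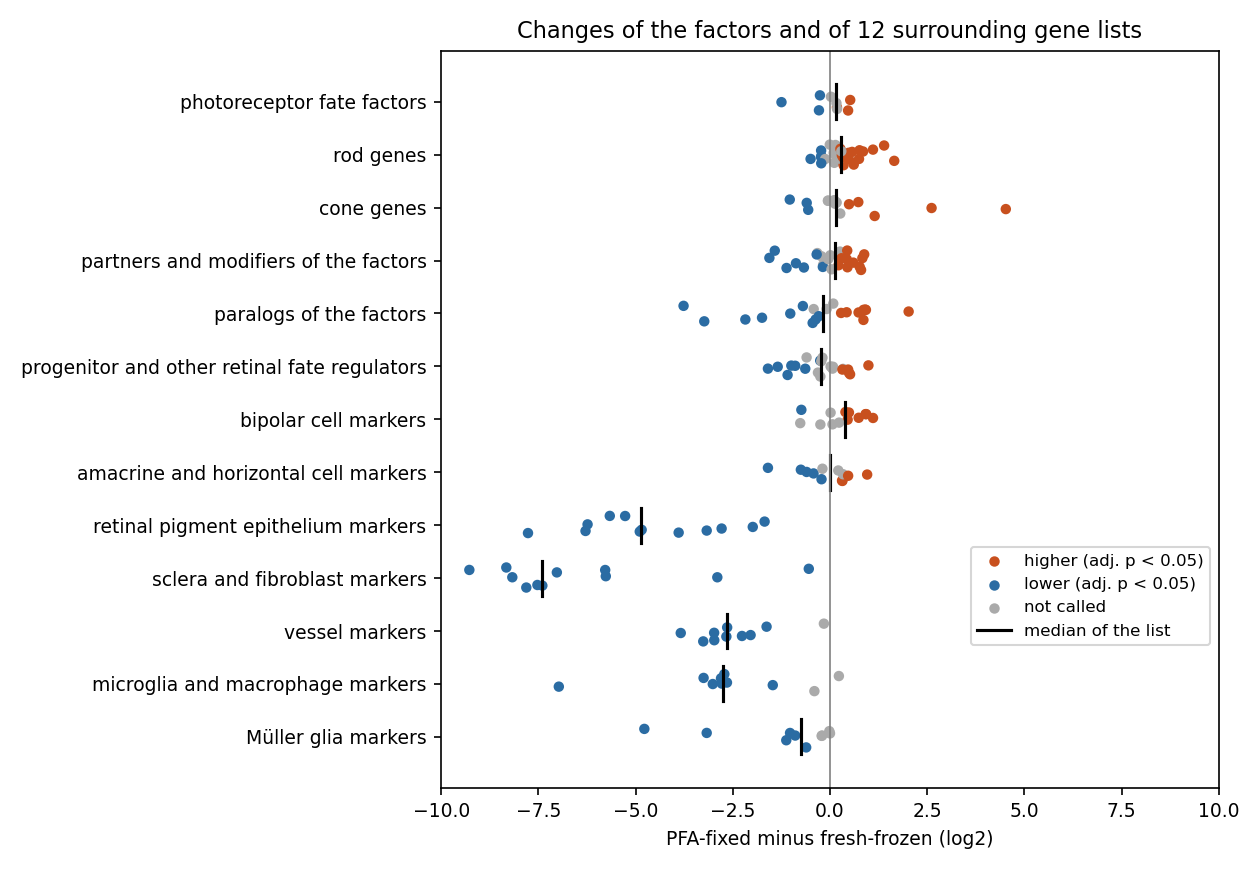
Change of each gene, PFA-fixed minus fresh-frozen in log2 units (horizontal axis), for the 9 factors and 12 surrounding lists, coloured by the limma call. Vertical bars are list medians. The factors span -1.25 to 0.52, whereas pigment epithelium, scleral, vascular and microglial lists have medians between -7.40 and -2.65.

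The gene with the nearest pattern to a factor was sought among 176 genes of these lists, as the smallest root-mean-square difference over the 8 libraries after subtracting each gene's mean. CRX was nearest to NCOR1 (0.0543 log2), OTX2 to RORA (0.0555) and THRB also to RORA (0.118). RORB was nearest to GNAT1, the rod transducin alpha subunit gene (0.0733), and MEF2D to PDE6G, the inhibitory subunit gene of the rod phosphodiesterase (0.102). NR2E3 was nearest to PAX6 (0.146), PRDM1 to PDE6H (0.265) and RXRG to TFAP2A (0.281). The last 2 were the least close, and both of those factors had the widest spread between replicates in fixed retina. GNAT1 fell by 0.23, a call that ended in 6 of 8 single omissions and with median centring (-0.15). PDE6G differed by 0.14 and turned to -0.09 with quantile normalization and -0.20 with rod-mean centring, for which it is itself a reference gene. PAX6 rose by 0.52 and was uncalled with rod-mean centring (0.18).

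Neighbouring genes were looked up in the gene table of another dog assembly, used only for names and order. No protein-coding gene overlapped any of the 9 measured factors there. THRB and MEF2D were overlapped by 2 and 1 long noncoding genes, which were not analysed here, and whether the counting used strand is not given in the sources used here.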

How the data were processed

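RNA of 4 fresh-frozen and 4 PFA-fixed dog retinas was sequenced as total RNA with a stranded low-input kit, per the labels' protocols. Kallisto 0.48.0, a pseudo-aligner, edgeR and limma are named in the submitters' processing notes, with no role given. The transcript reference and the filter on low values were not given in the sources used here. Per library, the deposited table gives the authors' log2 CPM values for 12824 genes, with one lowest value of -3.12 in all libraries. Effective depth was read from the spacing of low values (searched between 0.03 and 0.15 CPM). Of values up to 20 reads, 60.9% to 68.5% were whole within 0.1 of a read, where chance gives 20%, so reads were not recovered and no count test was run. Reads behind a value are estimates, and counting errors cover sampling of reads only.

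Groups were compared with limma 3.58.1 in R 4.3.3, with an intensity trend and a model of group alone; every gene was kept, and p-values were adjusted by Benjamini-Hochberg with a threshold of 0.05. In a simulation over 12824 genes the step called 68% of 50 genes changed 1.5-fold, 80% of 50 changed 2-fold and 9 of 12624 unchanged genes. Differences of pairs were tested by exact two-sided permutation (70 assignments). The factors and the 12 lists were chosen with earlier results of these data known. Named genes were all factors, the 2 highest and the 2 most changed called members of each list, and the nearest pattern for each factor; further list members are named where a family or role is described in full, chosen after their values were seen. Some genes that the rule takes are left out for space or not reported here. Alternatives were leaving out each library, a replicate block, quantile normalization, 3 centrings, a pseudocount of 1 CPM, a minimum mean of 3 log2 CPM and limma without trend. Of the symbols, 12495 matched the gene table of the assembly UU_Cfam_GSD_1.0 and 329 did not.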

Additional observations from a re-analysis of the deposited data

How the results depend on the processing

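Over single omissions the changes were 0.44 to 0.52 for CRX, 0.15 to 0.23 for OTX2, -0.31 to -0.17 for NRL, 0.41 to 0.61 for NR2E3, -0.35 to -0.23 for RORB, 0.10 to 0.24 for THRB, -1.42 to -1.15 for RXRG, 0.087 to 0.28 for MEF2D and -0.28 to 0.24 for PRDM1. Factors called numbered 2 to 4 higher and 2 to 3 lower. Pair changes ran from -0.77 to -0.69 for NRL, -0.81 to -0.67 for RORB, -1.94 to -1.61 for RXRG, -0.37 to -0.16 for MEF2D, -0.37 to -0.22 for OTX2, -0.41 to -0.21 for THRB, -0.81 to -0.21 for PRDM1 and -0.049 to 0.17 for NR2E3 against CRX, from 0.66 to 0.92 for NR2E3 against NRL and from -1.53 to -1.25 for RXRG against THRB. Leaving out fresh-frozen replicate 4 put 6 pairs past 0.05 (the 5 without overlap and MEF2D against CRX, exact permutation, adjusted p = 0.0476). That pass came from MEF2D against CRX tying with the other 5 at the smallest possible exact p, which had not changed. The same-numbered deviations correlated at 0.05, 0.15, -0.09 and 0.22, so numbers were not taken as pairs; with the replicate block MEF2D was called (0.18, limma adjusted p = 0.0424), no other factor changed its call, and calls over all genes were 4336 higher and 4463 lower. A sign-flip test of pairs was not run because its smallest p is 0.125. Rod-mean and rod-median centring gave 0.13 and 0.11 for CRX, -0.16 and -0.17 for OTX2, 0.18 and 0.17 for NR2E3, -0.18 and -0.19 for THRB, -0.16 and -0.17 for MEF2D and -0.32 and -0.33 for PRDM1, with 0 factors higher under both, 2370 and 2165 genes higher and 6692 and 6487 lower against 4353 and 4451. Under them the medians turned to -0.061 and -0.072 for rod genes, -0.19 and -0.20 for cone genes and -0.21 and -0.22 for partners; rod genes are the reference there, so the centring itself puts their median near 0. Quantile normalization gave OTX2 0.12 and turned the median of other fate regulators to 0.077. Median centring gave NRL -0.18 and THRB 0.25. Without the intensity trend OTX2 (limma adjusted p = 0.0694, change 0.18) and NRL (limma adjusted p = 0.0828, change -0.26) were not called. The other causes were not tested. RXRG and PRDM1 rested on the fewest estimated reads.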
